A study of Mus musculus with 9 samples.

Results

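miR-210 is a hypoxia-induced miRNA, and both mature arms of its mouse hairpin, miR-210-3p and miR-210-5p, were followed through the exosomes of renal tubular cells. The members were the 2 entries of the deposited table named mmu-miR-210-3p and mmu-miR-210-5p, out of 1978 mature miRNAs listed, and both were measured in all 9 libraries. The exosomes came from TCMK-1, an established mouse (C3H) line of renal tubular epithelial cells. Every group carried a lentivirus at a multiplicity of infection of 100, either the empty control vector (LV-NC) or a vector for BMAL1 (LV-BMAL1), in which a CMV promoter drives stable expression of Flag-tagged BMAL1 beside EGFP and a puromycin resistance gene. The groups were LV-NC in normal culture (called normoxic), H/R-LV-NC (called H/R control) and H/R-LV-BMAL1 (called BMAL1), with 3 libraries each. Hypoxia/reoxygenation (H/R) meant 24 h at 1% O2 followed by 12 h at 21% O2 in exosome-free medium. BMAL1 was not overexpressed without H/R in these libraries, so its effect was read only between the H/R-treated groups.

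The gene for miR-210 is switched on by hypoxia-inducible factors (HIF), which are stabilized when oxygen is low, and it is among the miRNAs most widely induced by hypoxia. The 3p arm is the one usually loaded into Argonaute, and its known targets include ISCU, a scaffold for iron-sulfur cluster assembly in mitochondria, and EFNA3, an ephrin ligand. BMAL1 is a core transcription factor of the circadian clock and belongs to the same family of PAS-domain proteins as the HIF subunits. Hypoxia followed by reoxygenation is a cell culture counterpart of ischemia/reperfusion of the kidney, an organ whose tubules are sensitive to lack of oxygen.

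The mature arms are shown because each was counted separately, and their seeds (bases 2 to 8, in capitals) are unlike. The sequences are those of RefSeq for GRCm38.p6, read 5′ to 3′.
miR-210-3p: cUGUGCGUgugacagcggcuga
miR-210-5p: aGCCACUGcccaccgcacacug
Each arm is 22 bases long. The 3p arm lies at chr7:141221407-141221428 and the 5p arm at chr7:141221445-141221466, both on the minus strand. In the hairpin, shown with both arms in capitals, the 5p arm takes bases 28 to 49 and the 3p arm bases 66 to 87.
Mir210 hairpin: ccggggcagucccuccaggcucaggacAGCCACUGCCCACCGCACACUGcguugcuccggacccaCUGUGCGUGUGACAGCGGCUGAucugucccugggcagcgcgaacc
The hairpin spans 110 bases, chr7:141221384-141221493. No other RefSeq gene overlaps it. The next genes on either side are Rassf7, 2726 bases away, and Gm51460, 6713 bases away. The nearest other listed miRNA with a position is miR-7063-5p, 399213 bases away. Of 1678 other listed miRNAs with a RefSeq sequence, 0 carry the seed of either arm, and the closest sequence to each arm differs from it by 7 edits. Among the miRNAs compared, miR-210 thus had no relative by seed and neither arm had a near copy with which it could share counts.

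The libraries held 807158 to 1447040 unique molecular identifiers (UMIs, which count PCR copies of 1 molecule once) in the normoxic group and the H/R control group, and 3357851 to 4057046 in the BMAL1 group. The share of scarce miRNAs also differed. miRNAs with a mean under 100 CPM (UMIs scaled to a library total of 1000000) accounted for 3.38% to 3.79% of all UMIs in the normoxic group, 3.48% to 6.63% in the H/R control group and 1.99% to 4.30% in the BMAL1 group. Scaling by trimmed means (TMM) took factors of 1.03 to 1.07, 1.05 to 1.72 and 0.558 to 0.940 in the 3 groups, against a factor of 1 for scaling by total UMIs. With total UMIs in place of TMM, the median log2 fold change of all 1682 miRNAs tested moved from 0.01 to 0.36 for the H/R control group against the normoxic group, from -0.04 to -0.87 for the BMAL1 group against the H/R control group and from 0.02 to -0.47 for the BMAL1 group against the normoxic group. Both scales are given for each arm. The labels do not say that libraries came from separate cultures, so the p-values measure the spread between these libraries, which may be technical. More exosomes from cells rich in an miRNA and more of that miRNA in each exosome cannot be told apart.

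miR-210-3p was lowest in the normoxic group, higher after H/R and highest after H/R with BMAL1, with no overlap between any groups. It was counted with 327, 384 and 529 UMIs in the normoxic group, with 1730, 966 and 1771 UMIs in the H/R control group and with 6378, 6910 and 6117 UMIs in the BMAL1 group. Its level was 334, 393 and 461 CPM in the normoxic group, 1288, 1197 and 1224 CPM in the H/R control group and 1899, 1916 and 1508 CPM in the BMAL1 group. The lowest H/R control library thus stood above every normoxic library, and the lowest BMAL1 library above every H/R control library. The group means were 395.8 ± 63.7, 1236 ± 47.1 and 1774 ± 231 CPM (SD, n = 3). On the TMM scale the levels were 324, 379 and 431 CPM in the normoxic group, 1226, 699 and 977 CPM in the H/R control group and 2023, 2603 and 2703 CPM in the BMAL1 group. The order of the groups was the same on this scale, while the spread inside both H/R-treated groups was wider and the order of the BMAL1 libraries turned. In every pair of groups, and on both scales, the exact two-sided permutation test over the libraries gave p = 0.1, the smallest it can give with 3 against 3.

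**Figure D1:**
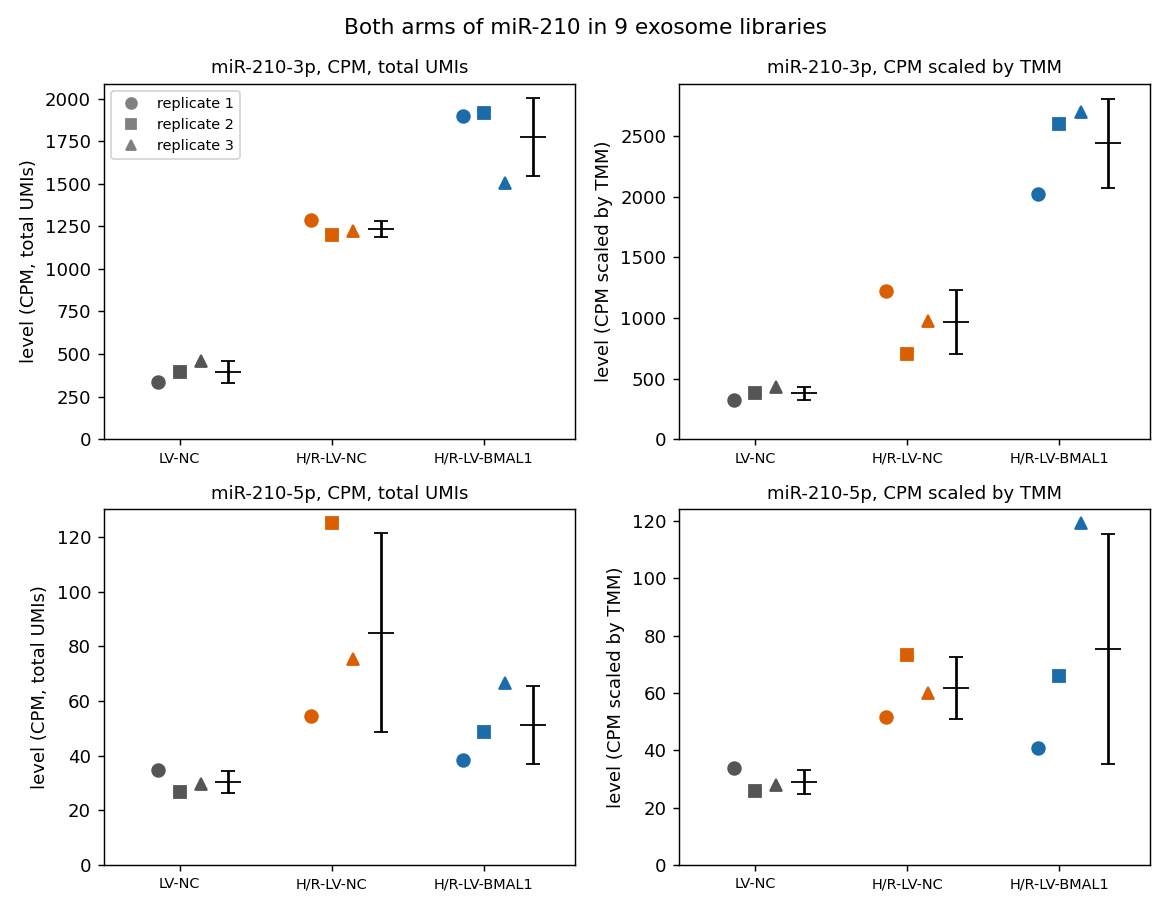
Levels of miR-210-3p (top) and miR-210-5p (bottom) in each of the 9 libraries, in CPM of total UMIs (left) and in CPM scaled by TMM (right). Points are libraries, and the black bars are the mean and SD of 3. The 3 groups of miR-210-3p are apart on both scales, whereas the H/R control and BMAL1 libraries of miR-210-5p overlap.

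After H/R, miR-210-3p was 3.12-fold higher than in the normoxic group by mean CPM and 2.56-fold higher in the edgeR fit with TMM (95% interval 1.64 to 3.98). The log2 fold change of that fit was 1.35 with a standard error of 0.290, and edgeR's quasi-likelihood test gave it the smallest p of the 1682 miRNAs tested, 0.000643. After Benjamini-Hochberg adjustment over all of them the p was 0.645, so the difference did not pass the threshold of 0.05. No miRNA passed it in either direction (0% of those tested), although 121 had an unadjusted p under 0.05. limma-voom also called 0, and DESeq2 called 2. With total UMIs, edgeR gave a log2 fold change of 1.64 with a standard error of 0.164 and an adjusted p of 0.00354. miR-210-3p was then the 1 miRNA called, 0.0595% of those tested. Whether H/R changed miR-210-3p beyond the threshold thus depended on the scaling and the tool, while its direction did not. Groups that do not overlap in this direction were found for 14.1% of all miRNAs tested in CPM and for 7.31% on the TMM scale, and in the opposite direction for 1.49% and 6.36%.

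In the comparison of the BMAL1 group with the H/R control group, miR-210-3p rose by a log2 fold change of 1.34 with TMM (standard error 0.289), which is 2.53-fold with a 95% interval of 1.63 to 3.92 (edgeR adjusted p = 0.0455). It was 1 of 36 miRNAs called higher, 2.14% of those tested. With total UMIs the size was smaller, a log2 fold change of 0.52 (standard error 0.160) or 1.43-fold, with an edgeR adjusted p of 0.0367 and 2.26% of miRNAs called higher and 28.6% lower. All 3 libraries of the BMAL1 group stood above all 3 of the H/R control group, which held for 4.76% of all miRNAs in CPM and 14.7% on the TMM scale, while 44.2% and 14.9% were lower in every library. The rise has to be read beside that of the other abundant miRNAs. Among the 116 miRNAs with a mean of at least 1000 UMIs, the median log2 fold change with TMM was 1.00 in this comparison, and miR-210-3p ranked 24th from the largest rise. By the ratio of mean CPM their median log2 value was 0.17, against 0.52 for miR-210-3p, which ranked 19th. The TMM call was also narrow. Of 11 other settings with all libraries kept, 5 stayed under 0.05. Beside total UMIs they were a mean of at least 50 UMIs (edgeR adjusted p = 0.0349), a robust fit (edgeR, 0.0354), limma-voom (0.0366) and DESeq2 (0.000369). In the others the edgeR adjusted p was 0.0598 with RLE size factors, 0.101 with upper quartiles, 0.0554 with no filter, 0.140 with the 2 groups only, 0.0997 with a replicate block and 0.0560 with TMM factors from abundant miRNAs. With any 1 of the 9 libraries left out, the log2 fold change stayed between 1.12 and 1.54, but the edgeR adjusted p ran from 0.0129 to 0.130 and was under 0.05 only without library 1 of the BMAL1 group.

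Against the normoxic group, the level in the BMAL1 group differed most. miR-210-3p was 4.48-fold higher by mean CPM and 6.46-fold higher with TMM (95% interval 4.07 to 10.2). The log2 fold change with TMM was 2.69 with a standard error of 0.303 and an edgeR adjusted p of 0.00339, and its p was the smallest of all miRNAs tested. By size, this rise ranked 32nd of the 1682 tested and 28th of the 703 with a mean of at least 50 UMIs. Among the 116 with a mean of at least 1000 UMIs it ranked 5th. Only 3 miRNAs were called higher (0.178% of those tested) and 1 lower (0.0595%) in this comparison. With total UMIs the log2 fold change was 2.16 (standard error 0.166, edgeR adjusted p = 0.000347), where 1.66% were called higher and 4.58% lower. Groups did not overlap in this direction for 6.18% of miRNAs in CPM and 14.1% on the TMM scale, and in the opposite direction for 29.8% and 11.5%. This comparison changes H/R and BMAL1 together, so the 2 cannot be told apart in it, and it shares its control libraries with the comparison after H/R. The edgeR adjusted p was 0.101 without library 1 of the normoxic group and 0.0567 without library 2 of the normoxic group, and under 0.05 with each of the other 7 left out in turn.

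**Figure D2:**
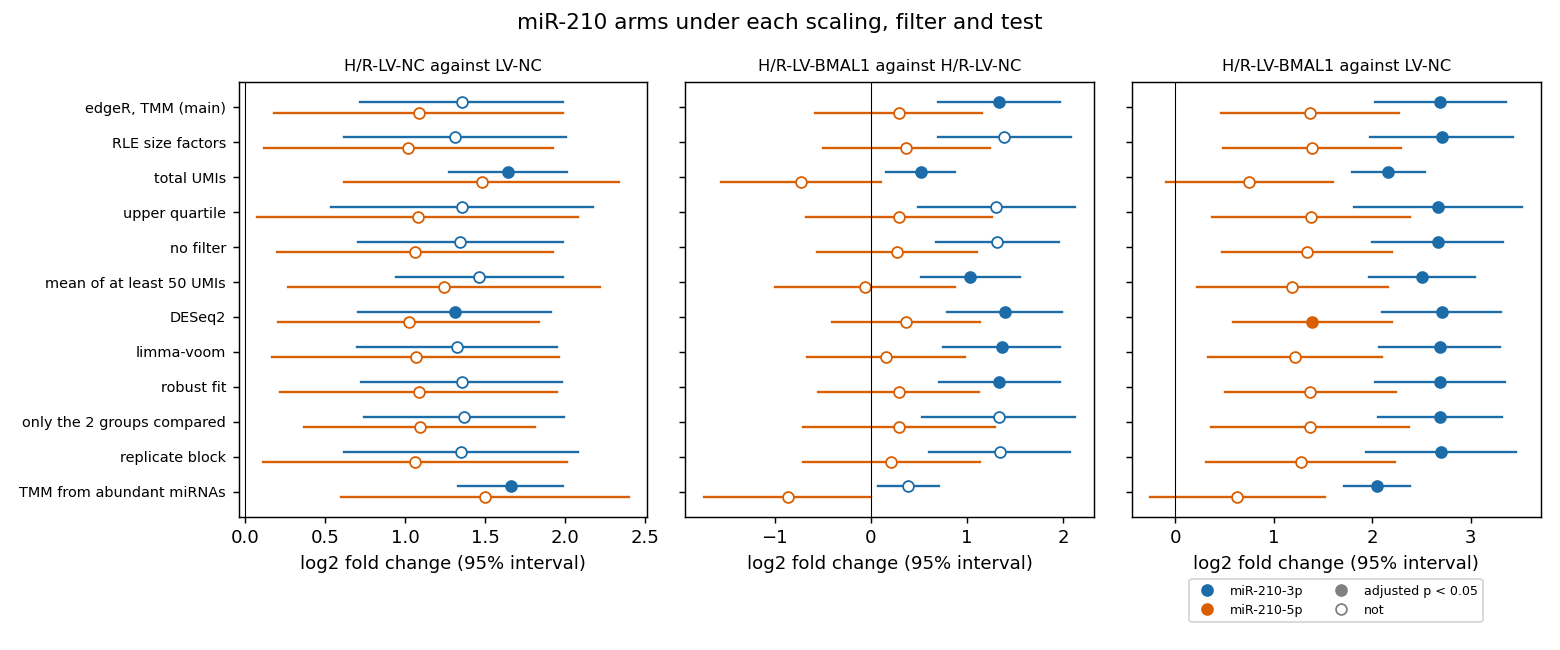
Log2 fold change of miR-210-3p (blue) and miR-210-5p (orange) in the 3 comparisons under each scaling, filter and test, with 95% intervals. Filled points have an adjusted p under 0.05. miR-210-3p lies above 0 in every row, from 1.31 to 1.66 after H/R, from 0.39 to 1.39 in the BMAL1 group against the H/R control group and at 2.05 or more against the normoxic group, whereas miR-210-5p lies on both sides of 0 in the middle panel.

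The ratio of miR-210-3p to other miRNAs of the same library needs no scaling. Against the geometric mean of 5 miRNAs often used as references in qPCR (miR-16-5p, miR-103-3p, miR-191-5p, miR-423-5p and miR-425-5p), there were 62.3, 67.6 and 72.6 UMIs of miR-210-3p per 1000 reference UMIs in the normoxic group. In the H/R control group there were 212, 207 and 207, and in the BMAL1 group 372, 316 and 279. The H/R control libraries lay close together, and the 3 groups were again apart. The mean log2 ratio was higher by 1.63 in the H/R control group than in the normoxic group, by 0.62 in the BMAL1 group than in the H/R control group and by 2.25 in the BMAL1 group than in the normoxic group (exact permutation p = 0.1 for each, the smallest possible). Within the groups its SD was 0.111, 0.0195 and 0.210 (n = 3). With miR-16-5p as the only reference the differences were 1.66, 0.19 and 1.86, and with let-7a-5p they were 1.77, 0.52 and 2.29. The step after H/R therefore varied little with the reference, whereas the step with BMAL1 was 0.19 to 0.62 and overlapped between groups with miR-16-5p alone (exact permutation p = 0.2). miR-103-3p is also counted below among the hypoxia-linked miRNAs.

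**Figure D3:**
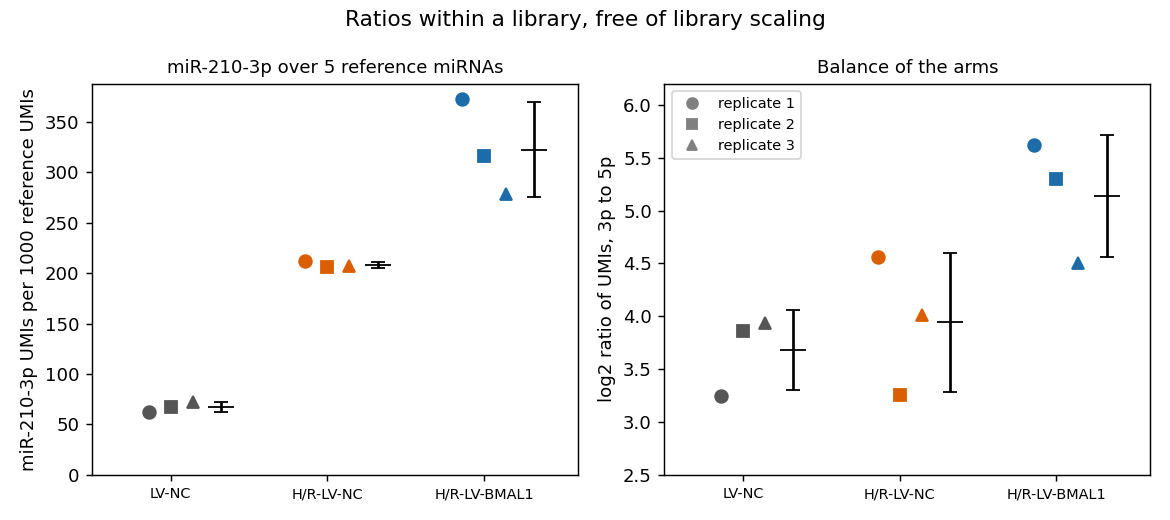
Ratios within each library. Left, UMIs of miR-210-3p per 1000 UMIs of the geometric mean of 5 reference miRNAs, which separate the 3 groups (62.3 to 72.6, 207 to 212 and 279 to 372). Right, the log2 ratio of miR-210-3p to miR-210-5p, in which the normoxic group and the H/R control group overlap. Points are libraries, and the black bars are the mean and SD of 3.

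The rank of miR-210-3p among all 1978 listed miRNAs moved the same way. It stood 135th, 122nd and 125th from the highest level in the normoxic group, 59th, 71st and 70th in the H/R control group and 51st, 47th and 57th in the BMAL1 group. Relative to the median miRNA of its library it was 20.4, 24.0 and 26.5 times as abundant in the normoxic group, 75.2, 37.2 and 55.3 times in the H/R control group and 130, 173 and 185 times in the BMAL1 group. The normoxic libraries were alike in this measure, and both H/R-treated groups spread more widely. The median miRNA itself stood at 16.3 to 17.4 CPM in the normoxic group, at 17.1 to 32.2 CPM in the H/R control group and at 8.13 to 14.6 CPM in the BMAL1 group.

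miR-210-5p, the scarcer arm, stood above its normoxic levels in both H/R-treated groups but showed no order between these. It had 34, 26 and 34 UMIs in the normoxic group, 73, 101 and 109 in the H/R control group and 129, 175 and 270 in the BMAL1 group. Its levels were 34.7, 26.6 and 29.6 CPM in the normoxic group, 54.4, 125 and 75.3 CPM in the H/R control group and 38.4, 48.5 and 66.6 CPM in the BMAL1 group. Library 2 of the H/R control group, the shallowest of all and the one with the largest TMM factor, held the highest CPM. On the TMM scale the levels were 33.7, 25.7 and 27.7 CPM, then 51.7, 73.1 and 60.1 CPM, then 40.9, 65.9 and 119 CPM, and library 3 of the BMAL1 group was the highest. Which H/R-treated group was higher on average thus turned with the scaling, with means of 84.9 ± 36.4 and 51.2 ± 14.3 CPM in the H/R control group and the BMAL1 group by total UMIs, and of 61.7 ± 10.8 and 75.4 ± 40.0 CPM with TMM (SD, n = 3).

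No comparison of miR-210-5p passed the threshold in edgeR with TMM or total UMIs. After H/R its log2 fold change was 1.08 with TMM (standard error 0.411, 95% interval of the fold 1.14 to 3.97, edgeR adjusted p = 0.645) and 1.48 with total UMIs (adjusted p = 0.468). Against the normoxic group, the BMAL1 group was higher by 1.37 with TMM (standard error 0.411, adjusted p = 0.107) and by 0.75 with total UMIs (adjusted p = 0.213). The H/R control and BMAL1 libraries all stood above the normoxic libraries on both scales (exact permutation p = 0.1). The same held for 14.1% of all miRNAs in CPM and 7.31% with TMM after H/R, and for 6.18% and 14.1% in the BMAL1 group against the normoxic group. Between the H/R-treated groups the log2 difference was 0.29 with TMM (standard error 0.397, fold 0.668 to 2.23 at 95%, edgeR adjusted p = 0.669) and -0.73 with total UMIs (fold 0.340 to 1.07, adjusted p = 0.149), and the libraries overlapped on both scales. These intervals hold both a rise and a fall of the 5p arm under BMAL1.

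The 3p arm was the major one in every library, and the share of the 5p arm was on average smallest in the BMAL1 group. There were 9.62, 14.8 and 15.6 UMIs of 3p for each UMI of 5p in the normoxic group, 23.7, 9.56 and 16.2 in the H/R control group and 49.4, 39.5 and 22.7 in the BMAL1 group. As a share of both arms, 5p took 9.42%, 6.34% and 6.04% in the normoxic group, 4.05%, 9.47% and 5.80% in the H/R control group and 1.98%, 2.47% and 4.23% in the BMAL1 group. Exact Clopper-Pearson intervals at 95%, which cover counting error only, were widest in normoxic library 1 (6.61% to 12.9%) and ran from 1.66% to 2.35% and from 3.75% to 4.75% in libraries 1 and 3 of the BMAL1 group, so libraries of 1 group differed by more than counting error. The mean log2 ratio of 3p to 5p was 3.68 ± 0.379 in the normoxic group, 3.94 ± 0.656 in the H/R control group and 5.14 ± 0.578 in the BMAL1 group (SD, n = 3). The normoxic group and the H/R control group differed by 0.26 (exact permutation p = 0.4). The BMAL1 group exceeded the H/R control group by 1.20 (exact permutation p = 0.2, with overlapping libraries) and the normoxic group by 1.46 (exact permutation p = 0.1, without overlap). The balance of the arms after H/R thus differed from that in normoxia by less than the spread of the libraries.

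Other hairpins varied in the balance of their arms in both directions. Among 140 hairpins with a mean of at least 50 UMIs in each arm, the change in the log2 ratio of the major to the minor arm had a median of -0.01 after H/R, 0.15 in the BMAL1 group against the H/R control group and 0.24 in the BMAL1 group against the normoxic group. The quartiles lay on both sides of 0, at -0.34 and 0.29, -0.30 and 0.66, and -0.32 and 0.69, and the ratio was higher for 68, 87 and 83 of the 140. The change of miR-210 ranked 38th, 21st and 8th from the largest. All libraries stood higher for 6 (4.29%), 32 (22.9%) and 36 (25.7%) of the 140 pairs, and miR-210 was among them only in the last comparison. miR-210-5p is itself among the miRNAs with a mean under 100 CPM, whose share of the UMIs differed between the groups as given above, and the part of that difference in the arm ratio was not tested.

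The steady order from normoxic through H/R control to BMAL1 libraries was rare. In CPM, 7 of the 1682 miRNAs tested (0.416%) had every H/R control library above every normoxic library and every BMAL1 library above those. Beside miR-210-3p they were miR-16-1-3p, miR-1839-5p, miR-221-3p, miR-34a-5p, a miRNA induced by p53, miR-350-3p and miR-421-3p. The mean CPM of the other 6 was 1.11-fold to 1.41-fold higher in the H/R control group than in the normoxic group, against 3.12-fold for miR-210-3p. From the H/R control group to the BMAL1 group the 6 gained 1.20-fold to 1.75-fold, a range that holds the 1.43-fold of miR-210-3p. miR-210-3p therefore stood apart from these 6 miRNAs in its step after H/R and not in its step with BMAL1. On the TMM scale 4 of the 1682 (0.238%) kept the order, miR-210-3p, miR-12188-5p, miR-7021-5p and miR-7083-3p. Of these, miR-7021-5p had group means of 17.7, 39.1 and 72.5 CPM. Its log2 fold change after H/R was 0.82 with TMM, against 1.35 for miR-210-3p. Of the 116 miRNAs with a mean of at least 1000 UMIs, 3 (2.59%) were in order in CPM and 1 (0.862%), miR-210-3p, on the TMM scale. Among these 116, the rise of miR-210-3p after H/R ranked 4th by the ratio of mean CPM. With TMM it ranked 51st of all 1682 tested and 23rd of the 703 with a mean of at least 50 UMIs. Among the 116 it was then second to that of miR-9-5p, a miRNA of neurons, whose log2 fold change was 3.43. The 2 neuronal miRNAs, led by miR-9-5p, ran from 16.4 to 338 CPM in sum within the H/R control group. Over all 9 libraries, 87.5% of the TMM-scaled level of miR-9-5p lay in library 3 of the BMAL1 group, which is outside this comparison. The largest library of miR-210-3p, the same one, held 23.8% of its level.

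The miRNAs most like each arm were sought by the root mean square difference of log2 CPM (TMM), each centred on its own mean over the 9 libraries, among 702 candidates with a mean of at least 50 UMIs. For miR-210-3p they were miR-7021-5p (0.361), miR-350-3p (0.517), miR-330-3p (0.598), miR-433-5p (0.598) and miR-6945-5p (0.616), against a median of 1.16 over the candidates. miR-7021-5p and miR-6945-5p were the other 2 miRNAs called higher in the BMAL1 group than in the normoxic group (log2 fold changes of 2.48 and 2.05, edgeR adjusted p of 0.0113 and 0.0386). Both were scarce, with means of 17.7 and 20.1 CPM in the normoxic group, against 395.8 CPM for miR-210-3p. miR-210-5p was the 51st most like its partner arm (0.777). For miR-210-5p the nearest were miR-7073-3p (0.313), miR-1981-3p (0.379), miR-181a-1-3p (0.416), miR-1953 (0.423) and miR-7211-5p (0.430), against a median of 0.797, and miR-210-3p was the 324th. Neither arm was thus among the 5 most like the other, although they come from 1 hairpin. These distances describe 9 libraries in 3 groups, of which the BMAL1 group differed from the others in depth and TMM factors, as given above. With a mean of at least 200 UMIs required, 1 of the 5 names was kept for each arm, and for miR-210-3p that was miR-350-3p, followed by miR-29a-3p, miR-34a-5p, miR-421-3p and miR-195a-5p.

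Other miRNAs linked to hypoxia mostly stood well below miR-210-3p after H/R. The list holds 22, all tested: 17 described as hypoxia-induced in human cancer cell lines and 5 others linked to HIF. It includes miR-27a-3p, which the study chose from these same libraries. In the H/R control group against the normoxic group, 0 of the 22 were called in either direction, as for all miRNAs tested. Their median log2 fold change was -0.22 with TMM and 0.08 by mean CPM, against 1.35 and 1.64 for miR-210-3p, and medians over all miRNAs tested of 0.01 with TMM and 0.36 with total UMIs. The 116 abundant miRNAs had medians of -0.26 with TMM and 0.03 by mean CPM, close to those of the list. With TMM the listed miRNAs ran from -1.33 for miR-27a-3p to 1.45 for miR-30b-5p. miR-27a-3p was scarce, with a mean of 40.2 UMIs. In the fit of miRNAs with a mean of at least 50 UMIs, the lowest of the 18 listed miRNAs kept stood at -0.57. miR-30b-5p, the single member above miR-210-3p, varied widely in the H/R control group, at 900.9 ± 1127 CPM against 220.0 ± 24.5 CPM in the normoxic group (SD, n = 3), and without library 2 of the H/R control group the highest member of the list stood at 0.20. In CPM, every H/R control library was above every normoxic library for 2 of the 22, against 14.1% of all miRNAs tested.

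In the BMAL1 group against the H/R control group the list and miR-210-3p both stood higher. With TMM, 5 of 22 rose and 0 fell, beside 2.14% called higher and 0.238% lower of all miRNAs. They were miR-195a-5p, a relative of miR-16 (log2 fold change 1.96), miR-155-5p, an inflammation-linked miRNA (1.58), miR-26a-5p (1.46), miR-21a-5p, a pro-fibrotic miRNA of the kidney (1.39), and miR-26b-5p (1.29), each with an edgeR adjusted p of 0.0455. The median of the list was 1.11 with TMM, near the 1.00 of all 116 abundant miRNAs, and 0.28 by mean CPM. The lowest member was miR-429-3p at -0.50, with an edgeR adjusted p of 0.374 and a mean of only 21.3 UMIs. With total UMIs 6 rose and 1 fell, beside 2.26% called higher and 28.6% lower of all miRNAs. The value of miR-210-3p, 1.34, lay within the range of the list here. These calls were as narrow as that of miR-210-3p, with 0 to 15 members called when 1 library was left out, and 0 without 8 of the 9 libraries in turn. In those 8 fits 0 of all miRNAs tested were called in either direction. Only leaving out library 1 of the BMAL1 group gave 15, and 127 of all 1738 miRNAs then tested were called higher and 12 lower.

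In the BMAL1 group against the normoxic group 0 of the 22 were called with TMM (0.178% higher and 0.0595% lower of all miRNAs tested), with a median of 0.90 and a range from -0.84 for miR-106a-5p to 1.72 for miR-195a-5p, all under the 2.69 of miR-210-3p. miR-106a-5p was scarce, with a mean of 8.78 UMIs. By mean CPM the median of the list was 0.34, and every BMAL1 library was above every normoxic library for 12 of the 22, against 6.18% of all miRNAs tested. The 116 abundant miRNAs had medians of 0.78 with TMM and 0.21 by mean CPM, close to those of the list. With total UMIs 5 rose and 1 fell, beside 1.66% called higher and 4.58% lower of all. miR-210-3p was thus above every listed miRNA in this comparison, and above all but miR-30b-5p after H/R.

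**Figure D4:**
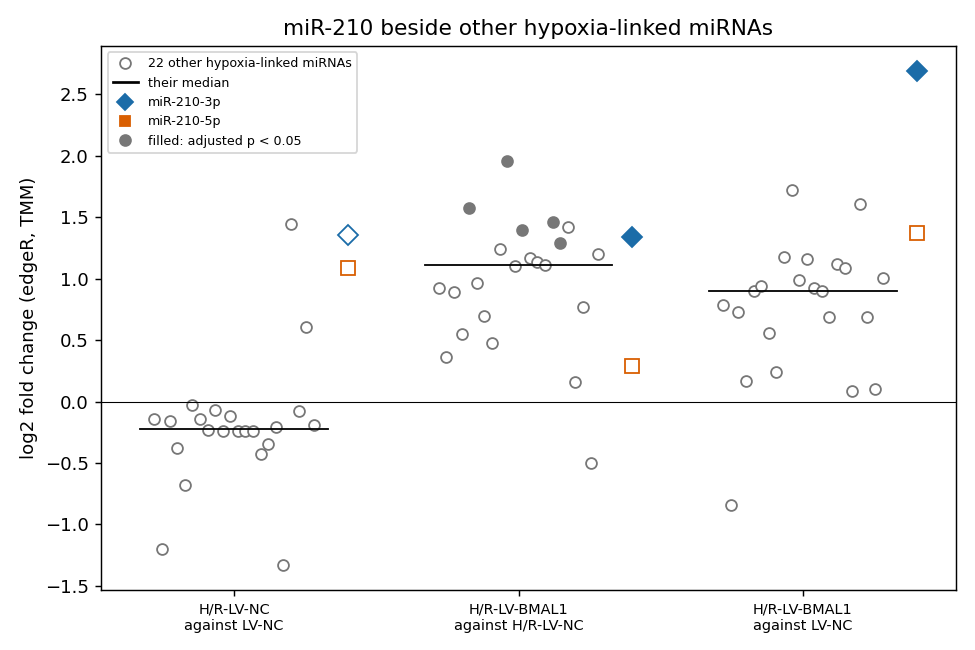
Log2 fold change (edgeR, TMM) of the 22 other hypoxia-linked miRNAs (circles, with their median as a line), of miR-210-3p (diamonds) and of miR-210-5p (squares) in the 3 comparisons. Filled symbols have an adjusted p under 0.05. The list is centred at -0.22, 1.11 and 0.90, and miR-210-3p stands at 1.35, 1.34 and 2.69.

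miRNAs of other cell types were measured beside these results. The 10 kidney tubule and epithelial miRNAs were all detected and summed to 7254 to 10540 CPM in the normoxic group, 8224 to 8768 CPM in the H/R control group and 12090 to 13800 CPM in the BMAL1 group. Most of this sum was miR-30a-5p, with a mean of 7803 CPM over all libraries. The 4 mesenchymal miRNAs, led by miR-143-3p, summed to more, 18300 to 20560, 16950 to 18070 and 20750 to 22010 CPM. Both sums were highest in the BMAL1 group, as miR-210-3p was, but neither had the H/R control group above the normoxic group in every library. Single epithelial members differed. In the normoxic, H/R control and BMAL1 groups miR-192-5p had means of 136, 158 and 209 CPM, and miR-429-3p 10.7, 22.5 and 8.24 CPM. The 2 endothelial miRNAs summed to 383 to 399.8, 358 to 548 and 634 to 995 CPM, and the 5 of blood cells to 344 to 436, 371 to 498 and 173 to 235 CPM, with miR-144-3p at 0 in some library. The 4 of liver and muscle ranged from 2459 to 3312 CPM over all libraries, with miR-1a-3p at 0 in some library. The 2 neuronal miRNAs were the least even, from 11.3 to 19.2 CPM in the normoxic group to 16.4 to 338 CPM in the H/R control group and 151 to 2720 CPM in the BMAL1 group. The part of these differences in the levels of miR-210 was not tested.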

How the data were processed

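Exosomes were isolated by differential ultracentrifugation and small RNA libraries were made with the QIAseq kit. The authors deposited UMI counts for 1978 mature miRNAs and CPM, which equal the counts scaled to the total UMIs of a library. The submitters' notes name cutadapt 2.7, Bowtie 1.3.0 and edgeR (no version). Not given in the sources used here: the genome build of the positions. Of those, 1671 of 1965 equal the positions in RefSeq GRCm38.p6. Groups came from the labels, and 0 columns were unused. No 2 libraries of a group were copies of each other.

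UMI counts were kept by filterByExpr (1682 miRNAs), scaled by TMM and tested in 1 quasi-likelihood fit of all 9 libraries with edgeR 4.0.16 (limma 3.58.1, R 4.3.3), with Benjamini-Hochberg adjustment over all of them and a threshold of 0.05. Arm ratios took a pseudocount of 0.5. Ratios and levels were compared by exact permutation. Alternatives were RLE, total-UMI and upper-quartile scaling, other filters, DESeq2 1.42.0, limma-voom, a robust fit, 2 groups only, a replicate block and leaving out libraries. TMM from abundant miRNAs was added after seeing the data. The edgeR fit with TMM was tested on simulated data. These had no shift in library composition like that of the real libraries, so they do not bear on the choice of scaling. Figures used Python 3.11.15 and matplotlib 3.10.9.

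The miRNAs and lists were chosen with earlier results of these data known. Named by rule were both arms, the called and the most extreme members of the hypoxia list, and the 5 miRNAs most like each arm. miRNAs in the steady order, miR-9-5p and the other calls against the normoxic group were named after their values were seen.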

Additional observations from a re-analysis of the deposited data

How the results depend on the processing

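The 3p arm kept its direction in the 3 comparisons under all 11 other settings and with each library left out. After H/R it passed the threshold at 1.64 with total UMIs, 1.31 with DESeq2 and 1.66 with TMM from abundant miRNAs, and it ran from 1.14 to 1.56 with 1 library left out. In the BMAL1 group against the H/R control group it no longer passed at 1.39 with RLE, 1.31 with upper quartiles, 1.32 with no filter, 1.33 with 2 groups only, 1.34 with the replicate block (edgeR adjusted p = 0.0997) and 0.39 with TMM from abundant miRNAs, and ran from 1.12 to 1.54 with 1 library left out. It passed in the other 5 of the 11 settings. Against the normoxic group all 11 settings passed, and leaving out 1 library gave 2.54 to 2.80. The 5p arm reversed in the BMAL1 group against the H/R control group, at -0.73 with total UMIs, -0.056 with a mean of at least 50 UMIs, -0.87 with TMM from abundant miRNAs and -0.25 without library 3 of the BMAL1 group. With 1 library left out it ran from -0.25 to 0.58, after H/R from 0.97 to 1.19 and against the normoxic group from 0.82 to 1.66. Against the normoxic group it passed at 1.39 with DESeq2 and at 1.66 without library 1 of the BMAL1 group. The arm ratio after H/R reversed to -0.048 without library 1 of the H/R control group (range -0.048 to 0.60). Of the hypoxia list, 0 were called in the BMAL1 group against the H/R control group with RLE, upper quartiles, no filter, 2 groups only or the replicate block. In each of these settings 0 of all miRNAs tested were called in either direction. With DESeq2 15 were called (163 higher and 77 lower of all miRNAs). With 1 library left out 0 to 15 were called (0 to 127 higher and 0 to 12 lower of all). Against the normoxic group, 6 were called with total UMIs (28 higher and 77 lower of all) and 1 (7 and 3) with a mean of at least 50 UMIs. There were 12 with DESeq2 (97 and 48) and 5 with TMM from abundant miRNAs (26 and 115). With 1 library left out, 0 to 5 were called. The 5 came without library 1 of the BMAL1 group, where 60 of all miRNAs were called higher and 6 lower. The cause of these changes was not tested. No pairing by replicate number was seen: deviations of same-numbered libraries correlated at -0.16 to 0.13, 1 of 9 pairs above 0.1, and 3 of the 9 libraries correlated best with their own number. With so few libraries, this cannot show that same-numbered libraries were handled apart, and the labels do not say. The 5p arm rests on 26 to 34 UMIs in the normoxic group.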
